A study of Mus musculus with 2 samples.

Results

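A stretch of mouse chromosome 2 from 61.5 to 132.6 Mb (genome build mm9) is described here, across which genes had lower RNA levels in APL#2 than in APL#1, 2 mouse acute promyelocytic leukaemias. The stretch holds 852 of the 23235 listed genes. Of these, 455 were at 0 in both leukaemias, 325 had a mean above 0 and under 1 FPKM (fragments scaled to transcript length and library total), and 72 had a mean of at least 1 FPKM and are called measured. The 47 members are the measured genes of the stretch that remain after 25 others were set aside: 9 by the prefix of a large gene family such as ribosomal or proteasome proteins, and 16 by name. No measured gene of the stretch was lost for carrying several symbols. The members were selected on measured values: the limits of the stretch come from the difference in FPKM between these same libraries, and the level limit from their mean. Their lower levels in APL#2 are therefore a description, with no test.

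APL#2 and APL#1 are primary leukaemias of PML-RAR mice, which the labels give as mCG-PML-RAR transgenic in 1 field and PML-RAR KI in another. Both come from C57BL/6-Ly5.2 mice aged 10 weeks and are labelled untreated. The titles of both libraries also carry the tag VEH (S12_VEH for APL#1 and S18_VEH for APL#2). CD45.2+ leukaemic cells, 200000 for APL#2 and 2000000 for APL#1, were given to CD45.1+ recipients that had not been irradiated, then taken back from spleen on immunomagnetic columns. Each leukaemia has 1 library, so no difference has a replicate check, and leukaemia, recipient, cell dose and library cannot be told apart. In bulk RNA, fewer cells of a type and less RNA per cell cannot be told apart either.

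Acute promyelocytic leukaemia is a myeloid leukaemia in which the PML-RAR fusion protein holds granulocyte precursors at the promyelocyte stage. Mouse chromosome 2 is of known interest in such disease, because interstitial losses that take in Sfpi1, the gene of the myeloid transcription factor PU.1, recur in mouse myeloid leukaemias. DNA was not measured in these libraries, and the part of DNA copy number in the values below was not tested. The members serve many different functions in the cell, and the rule joins them by their place on the chromosome.

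The libraries had similar depth. Judged by the step size of very low values, a single fragment added about 0.0180 FPKM to a 1 kb transcript in APL#2, against 0.0194 FPKM in APL#1. All 8 listed promyelocyte markers were measured, with a summed level of 199.5 FPKM in APL#2 and 727.0 FPKM in APL#1, most of it Mpo (157.3 FPKM in APL#2, 661.8 FPKM in APL#1). The list did not move as one: Elane, Prtn3, Cd34, Ptprc and Kit had lower FPKM in APL#2 as well, as did 71.6% of all measured genes. Ptprc (4.10 FPKM in APL#2, 4.66 FPKM in APL#1) and Kit (1.26 FPKM in APL#2, 1.46 FPKM in APL#1) differed little. Ms4a3 (15.9 FPKM in APL#2, 7.85 FPKM in APL#1) and Ctsg (8.99 FPKM in APL#2, 7.89 FPKM in APL#1) were higher. Markers of B cells (5 of 6 listed genes found), T cells (6 of 6), NK cells (5 of 5) and red cell precursors (4 of 6) each summed to at most 0.50 FPKM in APL#2 and 0.196 FPKM in APL#1. The T cell sum was 0.50 FPKM in APL#2 against 0.058 in APL#1, and the B cell sum 0.404 FPKM in APL#2 against 0.196 in APL#1. The sums of NK cells and red cell precursors were lower in APL#2. Of 8 macrophage and dendritic cell markers found, 2 (Cd68 and Vcam1) were measured, and the sum of 9.12 FPKM in APL#2 and 5.63 FPKM in APL#1 was mostly Vcam1, with Cd68 lower in APL#2. Of 5 platelet markers, Itga2b was measured, and the sum was 3.96 FPKM in APL#2 and 2.37 FPKM in APL#1. Ncr1, Gzmb, Prf1, Epor, Siglech, Pf4, Ppbp and Gp9 were at 0 in both libraries. The part of these marker differences in the members' values was not tested.

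Every member had a lower FPKM in APL#2. Levels of the 47 members ran from 0.496 to 10.8 FPKM in APL#2, with a median of 1.03, and from 1.27 to 22.1 FPKM in APL#1, with a median of 2.08. In APL#2, 22 members were under 1 FPKM (10.5% of measured genes were) and passed the level limit through APL#1; none could be under 1 in APL#1, since the mean had to reach 1 and every member was lower in APL#2. Together the members made up 0.223% of the summed FPKM of APL#2 and 0.478% of that of APL#1. Over all 4100 measured genes, 71.6% also had the lower FPKM in APL#2, and the median ratio of APL#2 to APL#1 was 0.835. Ratios below are therefore divided by that median and called relative ratios, so that 1 marks a gene that stood like the typical gene.

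The median relative ratio of the members was 0.525, with an interquartile range over genes of 0.463 to 0.624. On this scale 46 of 47 members lay below the all-gene median, against 50% of measured genes, which follows from the definition of a median. A relative ratio at least 1.5-fold under the median was seen in 37 members (background 9.83% of measured genes), and at least 2-fold under it in 16 members (background 3.41%). Another measure was log2((FPKM in APL#2 + 1)/(FPKM in APL#1 + 1)) of -1 or less, which was not divided by the all-gene median. Being undivided, it gives counts that cannot be set against those on the relative ratio. The 1 added, a pseudocount, understates the change of low genes. The measure was met by 4 members, with a background of 2.44%. The count depends on the pseudocount: it was 16 of 47 with 0.5 (background 3.85%) and 30 of 47 with 0.1 (background 6.15%). With 1, the 4 were Gm6793, 2700094K13Rik, 2900064A13Rik and Itpa, and no member was at least 2-fold higher, with a background of 2.1%. Because the same contrast set the stretch, nothing is read from how far these counts exceed their background.

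**Figure D1:**
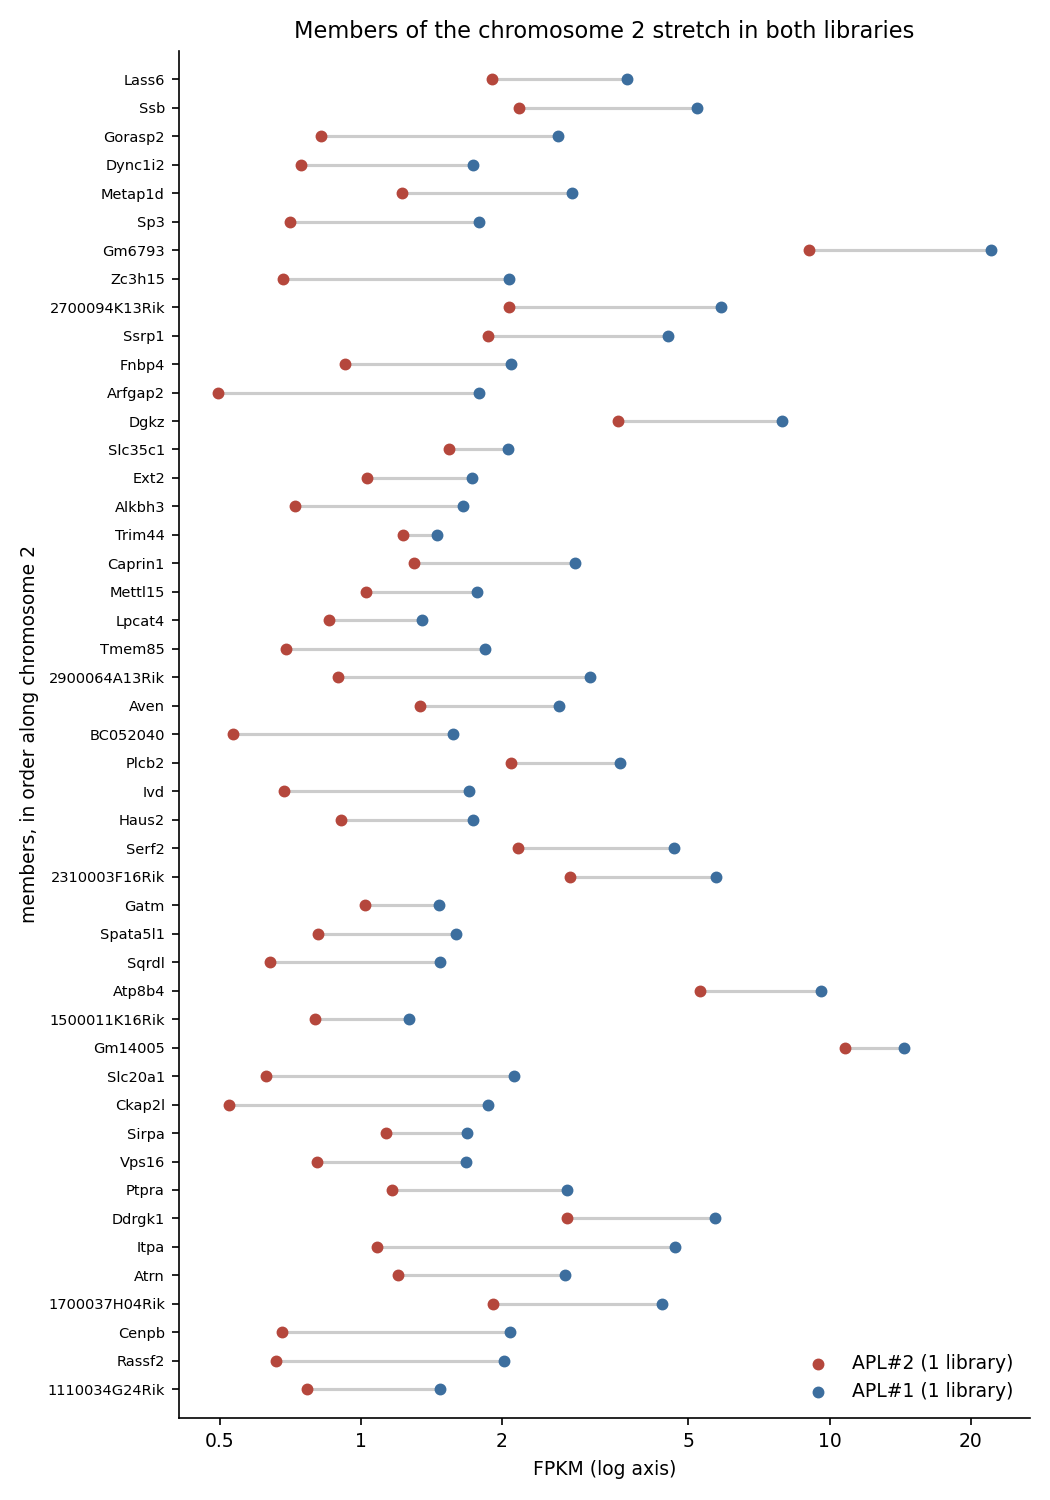
FPKM of the 47 members in APL#2 (red) and APL#1 (blue), 1 library each, on a log axis, with members in order along chromosome 2 from top to bottom. Every red point lies left of its blue point; the shortest bars are those of Trim44, Slc35c1 and Gm14005, and the longest is that of Itpa.

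The promoters of the members at the extremes are shown first, so that the letters can be read beside the values. Each run is the 250 bases before the gene start on the gene's own strand, from RefSeq on build GRCm38.p6, which is not the build of the expression table. Itpa had the lowest relative ratio and Trim44 the highest. Atp8b4 and Gm14005 had the highest levels in APL#2 among members whose locus overlaps no other listed gene. Capitals mark any of 6 motifs found on either strand: the TATA box TATAAA, the CCAAT box itself, the GC box GGGCGG, the E-box CACGTG, the cyclic AMP response element TGACGTCA and the ETS-type GAGGAAGT. The last is a purine-rich word of the kind that PU.1 binds, and no capitals appear where no motif was found.
Itpa, chr2:130667552-130667801, plus strand: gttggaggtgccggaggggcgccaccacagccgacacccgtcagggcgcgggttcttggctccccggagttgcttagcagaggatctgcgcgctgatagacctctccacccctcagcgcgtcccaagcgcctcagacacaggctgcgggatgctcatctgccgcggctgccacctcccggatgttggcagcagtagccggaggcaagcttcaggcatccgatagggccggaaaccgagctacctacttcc
Trim44, chr2:102400901-102401150, minus strand: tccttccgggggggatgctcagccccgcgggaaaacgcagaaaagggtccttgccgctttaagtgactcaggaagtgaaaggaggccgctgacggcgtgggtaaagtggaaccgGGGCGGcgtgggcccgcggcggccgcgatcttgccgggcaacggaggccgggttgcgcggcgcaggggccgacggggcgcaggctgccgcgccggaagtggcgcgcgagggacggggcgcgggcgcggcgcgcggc
Atp8b4, chr2:126491554-126491803, minus strand: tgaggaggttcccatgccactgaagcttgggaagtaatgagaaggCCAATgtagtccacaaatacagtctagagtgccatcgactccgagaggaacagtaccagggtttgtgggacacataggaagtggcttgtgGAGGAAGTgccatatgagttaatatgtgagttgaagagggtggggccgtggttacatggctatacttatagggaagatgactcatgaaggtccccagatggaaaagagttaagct
Gm14005, chr2:128429352-128429601, minus strand: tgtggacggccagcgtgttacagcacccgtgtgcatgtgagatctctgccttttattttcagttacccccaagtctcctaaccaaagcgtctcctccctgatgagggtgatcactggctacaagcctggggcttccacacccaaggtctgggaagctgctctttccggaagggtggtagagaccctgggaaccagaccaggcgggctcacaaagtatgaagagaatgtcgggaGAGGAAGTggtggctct

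A promoter was found for 44 members. GAGGAAGT stood in 4 of the 44 (9.09%), against 2.46% of 3253 promoters of measured genes and 2.44% of all 27025 promoters in the table, cut to the same length. Besides Atp8b4 and Gm14005, the others were Arfgap2 and 2310003F16Rik, and the relative ratios of the 4 ran from 0.333 to 0.896. With only 4 such promoters and 6 words searched, nothing is read from this share, and PU.1 binding was not tested. The GC box GGGCGG was in 22 promoters (50%, against 60.3% of measured genes and 32.9% of all), and the members with it had a median relative ratio of 0.525. CCAAT was in 16 (36.4%, against 39.2% and 34.5%), with a median relative ratio of 0.522. The E-box CACGTG was in 7 (15.9%, against 9.65% and 6.05%), with a median of 0.556. TATAAA (7.32% of promoters of measured genes, 13.0% of all) was not found in these windows, nor was TGACGTCA (2.64% and 1.62%). In 12 members, Itpa among them, none of the 6 words occurred, and their median relative ratio was 0.505. The medians of these overlapping groups lay between 0.505 and 0.556, apart from 0.620 for the 4 with GAGGAAGT. The median GC content of the members' promoters was 59.6%, against 52.0% over all promoters and 59.6% over those of measured genes.

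Genes of cell division and DNA repair include the lowest relative ratio among the members. Itpa, the pyrophosphatase that clears inosine triphosphate from the nucleotide pool, had 1.08 FPKM in APL#2 against 4.67 in APL#1, a relative ratio of 0.278. Ckap2l, a spindle protein of dividing cells, had 0.524 FPKM in APL#2 against 1.87 in APL#1. Haus2, a subunit of the augmin complex that branches spindle microtubules, was less far apart, at 0.908 FPKM in APL#2 against 1.74 in APL#1. The whole group of 3 was below the all-gene median, and its median relative ratio was 0.336. This median depends on the list: with the repair genes Alkbh3 and 1110034G24Rik, which the list does not hold, it was 0.525 over 5 genes, that of all members.

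In the group of transcription and chromatin genes, all 3 members had relative ratios under 0.5. Cenpb, which binds a DNA word in centromeres, had 0.680 FPKM in APL#2 against 2.08 in APL#1. Sp3, a zinc-finger transcription factor of GC boxes, had 0.707 FPKM in APL#2 against 1.78 in APL#1. Ssrp1, of the FACT histone chaperone, was the most abundant, at 1.87 FPKM in APL#2 against 4.53 in APL#1. Their relative ratios were 0.391 for Cenpb, 0.475 for Sp3 and 0.495 for Ssrp1. The locus of Sp3 also holds 1700011J10Rik, which went the other way (0.482 FPKM in APL#2 against 0.213 in APL#1).

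Genes of RNA processing and translation lay close to the middle of the members. All 6 were below the all-gene median, and their median relative ratio was 0.537. Zc3h15, a zinc-finger protein, was the lowest, at 0.681 FPKM in APL#2 against 2.07 in APL#1. Ssb, the La protein that guards the ends of new RNA polymerase III transcripts, had 2.18 FPKM in APL#2 against 5.21 in APL#1. Caprin1, a stress granule protein, had 1.30 FPKM in APL#2 against 2.87 in APL#1, and Fnbp4, a formin-binding protein, had 0.926 FPKM in APL#2 against 2.09 in APL#1. 2310003F16Rik, now called Hypk, a partner of the enzyme that acetylates new protein ends, had 2.79 FPKM in APL#2 against 5.72 in APL#1. Mettl15, a methyltransferase of mitochondrial ribosomal RNA, differed least, at 1.03 FPKM in APL#2 against 1.77 in APL#1.

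Membrane traffic and cytoskeleton genes had a median relative ratio of 0.439 over 4 members, all below the all-gene median. Arfgap2, which switches off the Arf GTPase of COPI vesicles, had 0.496 FPKM in APL#2, the lowest level of any member, and 1.79 in APL#1. Gorasp2, a Golgi stacking protein, had the next lowest relative ratio of the group, 0.374, with 0.823 FPKM in APL#2 against 2.64 in APL#1. Dync1i2, an intermediate chain of the dynein motor, had 0.747 FPKM in APL#2 against 1.74 in APL#1. Vps16, of the tethering complexes that fuse vesicles with lysosomes, had 0.808 FPKM in APL#2 against 1.67 in APL#1.

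Members of mitochondria and metabolism ranged widely, with relative ratios of 0.356 to 0.893 and a median of 0.567 over 8 genes (0.616 over 9 with 1500011K16Rik, which the list does not hold). Slc20a1, a phosphate importer, was the lowest, at 0.628 FPKM in APL#2 against 2.12 in APL#1. Among the next were mitochondrial enzymes. Ivd, of leucine breakdown, had 0.686 FPKM in APL#2 against 1.70 in APL#1. Sqrdl, which oxidises sulphide, had 0.640 FPKM in APL#2 against 1.48 in APL#1. Metap1d, which trims methionine from new mitochondrial proteins, had 1.23 FPKM in APL#2 against 2.82 in APL#1. Lipid enzymes were Lass6, now called Cers6, a ceramide synthase (1.91 FPKM in APL#2 against 3.70 in APL#1), and Lpcat4, a lysophospholipid acyltransferase (0.857 FPKM in APL#2 against 1.35 in APL#1). Closest to the typical gene were Gatm, of creatine synthesis, at 1.02 FPKM in APL#2 against 1.47 in APL#1, and Slc35c1. Slc35c1, which carries GDP-fucose into the Golgi for selectin ligands, had 1.54 FPKM in APL#2 against 2.06 in APL#1.

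Among genes of immune and growth signalling, 6 of 6 were below the all-gene median, with a median relative ratio of 0.531. Dgkz, the diacylglycerol kinase that ends a lipid signal, was the most abundant, at 3.54 FPKM in APL#2 against 7.90 in APL#1. Plcb2, the phospholipase C of blood cells that makes this lipid, differed less, at 2.09 FPKM in APL#2 against 3.58 in APL#1. Both are genes of lipid signalling, and their relative ratios were 0.537 for Dgkz and 0.699 for Plcb2. Ptpra, a receptor tyrosine phosphatase that activates Src kinases, had 1.17 FPKM in APL#2 against 2.75 in APL#1. Atrn, the membrane protein attractin, had 1.20 FPKM in APL#2 against 2.73 in APL#1. Rassf2, a Ras-binding growth suppressor, was the lowest of the group, at 0.660 FPKM in APL#2 against 2.02 in APL#1. Sirpa, the inhibitory myeloid receptor for the don't-eat-me signal CD47, was the least apart, at 1.13 FPKM in APL#2 against 1.69 in APL#1.

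The group of protein folding, modification and turnover holds the single member above the all-gene median. Trim44, a tripartite motif protein linked to ubiquitin, had 1.23 FPKM in APL#2 against 1.46 in APL#1, a relative ratio of 1.01. Its estimated fragments, 35.4 in APL#2 and 38.6 in APL#1, were among the fewest and rest on a median annotated transcript of 516 bases; the counting error was 0.34 on the log2 scale. Both members that encode subunits of the ER membrane complex, which inserts membrane proteins, were lower than the members' median. Subunits encoded outside the stretch were not looked at. 2900064A13Rik, now called Emc7, had 0.894 FPKM in APL#2 against 3.08 in APL#1, and Tmem85, now called Emc4, had 0.692 FPKM in APL#2 against 1.84 in APL#1. For Tmem85 the standard error implied by the authors' deposited table, 2.55 on the log2 scale, was the widest of any member. Ddrgk1, an ER protein of the ubiquitin-like UFM pathway, had 2.76 FPKM in APL#2 against 5.69 in APL#1. Serf2, whose worm homologue promotes protein aggregation, had 2.16 FPKM in APL#2 against 4.65 in APL#1. Ext2, which builds heparan sulphate chains, had 1.03 FPKM in APL#2 against 1.72 in APL#1. Aven, a cell death inhibitor placed in this list although it folds no protein, had 1.34 FPKM in APL#2 against 2.64 in APL#1.

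Of the 10 members in no role list, the noncoding RNA Gm14005 was the most abundant with a locus of its own. Gm14005, now called Morrbid, is a long noncoding RNA of myeloid cells that in mouse represses its neighbour, the cell death gene Bcl2l11. It had 10.8 FPKM in APL#2 against 14.4 in APL#1, a relative ratio of 0.896, the second highest of the members. Gm6793 had a higher mean level, 9.03 FPKM in APL#2 against 22.1 in APL#1, but its row has the same locus as Hnrnpa3 (6.05 FPKM in APL#2 against 14.8 in APL#1), and RefSeq places this pseudogene on chromosome 8. Its level is therefore uncertain. Atp8b4, of the P-type ATPase family that moves phospholipids across membranes, had 5.28 FPKM in APL#2 against 9.6 in APL#1, with the most estimated fragments of any member (1170 in APL#2 and 1969 in APL#1). 2700094K13Rik, now called Selenoh, a nuclear selenoprotein, had 2.07 FPKM in APL#2 against 5.86 in APL#1.

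Further members outside the lists had lower levels, and some have roles close to a list's name: Alkbh3 and 1110034G24Rik in DNA repair, and 1500011K16Rik in mitochondria. Alkbh3, a demethylase that repairs alkylated nucleic acids, had 0.724 FPKM in APL#2 against 1.65 in APL#1. 1110034G24Rik, now called Shld1, a shieldin subunit that protects broken DNA ends, had 0.766 FPKM in APL#2 against 1.48 in APL#1. Spata5l1, an AAA-type ATPase, had 0.811 FPKM in APL#2 against 1.60 in APL#1. The 1500011K16Rik gene, now called Mtln, encodes a mitochondrial micropeptide and was close to the level limit, at 0.800 FPKM in APL#2 against 1.27 in APL#1. Of the genes for which no role is given here, 1700037H04Rik had 1.92 FPKM in APL#2 against 4.38 in APL#1, and BC052040 had 0.533 FPKM in APL#2 against 1.57 in APL#1. The 10 were below the all-gene median without exception, and their median relative ratio was 0.565.

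**Figure D2:**
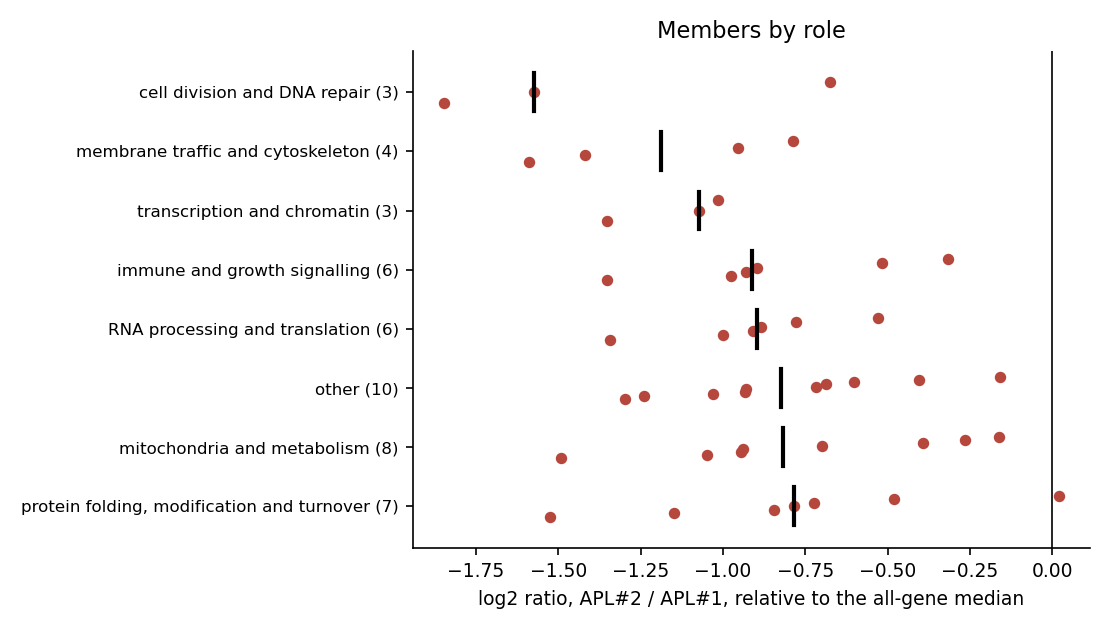
Log2 ratio of APL#2 to APL#1 relative to the median of all measured genes, for the 47 members by role, with the number of members in brackets, 1 point per gene and a black bar at each group's median. Groups overlap over most of their range, and Trim44 is the 1 point above 0.

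Members with lower levels in APL#2 were spread along the stretch from Lass6 onward, with gaps where no gene was measured. In 8 consecutive windows of 10 Mb, counted from the start of the stretch, the median relative ratio was 0.516 (5 members), 0.482 (2), 0.423 (5), 0.620 (4), 0.693 (3), 0.570 (10), 0.551 (16) and, in the short last window, 0.493 (2). The highest windows, the fourth and the fifth, run from 91.5 to 111.5 Mb and hold Slc35c1, Ext2 and Trim44 beside Dgkz, Alkbh3, Caprin1 and Mettl15. Once genes with a mean of at least 0.5 FPKM were counted, the fifth window held 10 genes and its log2 median was -0.90, against -0.53 for its 3 members. The fourth window then held 13 genes at -0.87, against -0.69 for its 4 members. The height of both windows thus rests on few genes. The widest gap between starts of neighbouring members was 8.32 Mb, from Alkbh3 to Trim44. Olfactory receptor genes, 261 in the stretch, were at 0 in both libraries without exception.

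Close neighbours did not have closer ratios than other members. In 7 pairs of consecutive members with at most 50 kb between them, the median difference of log2 ratio was 0.45, beside 0.41 over all 1081 pairs of members. Serf2 and 2310003F16Rik, 323 bases apart, had relative ratios of 0.556 and 0.583. Ddrgk1 and Itpa, 3195 bases apart, had 0.580 and 0.278. Across the 47 members, which share both libraries, Spearman's rho of the log2 ratio was 0.06 with mean level and 0.08 with position.

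**Figure D3:**
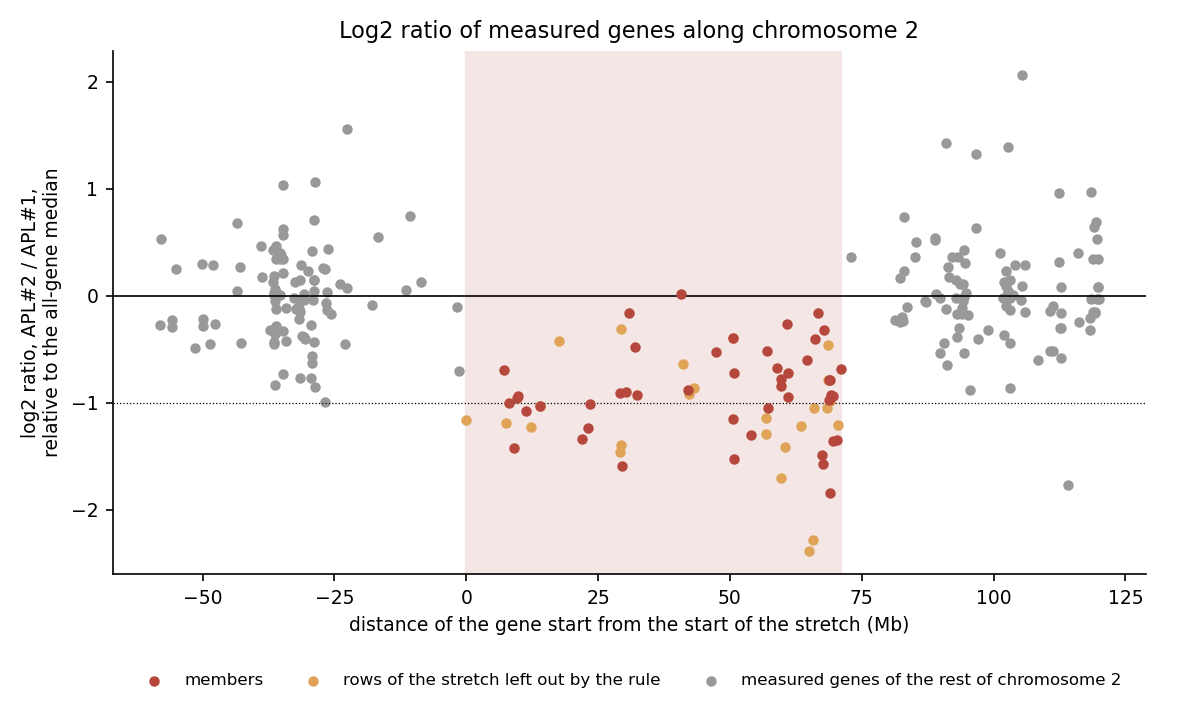
Log2 ratio of APL#2 to APL#1 relative to the all-gene median for measured genes of chromosome 2, against the distance of the gene start from the start of the stretch (shaded); genes at 0 in one library are not drawn. Members (red) and the genes set aside (orange) lie around -1 (dotted line), and genes on both sides (grey) lie around 0.

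Few genes were measured around either end. The first measured gene inside the stretch was Psmd14 at 61.5 Mb, which the rule sets aside (0.593 FPKM in APL#2, 1.58 FPKM in APL#1). The first members, Lass6 at 68.7 Mb, Ssb at 69.7 Mb and Gorasp2 at 70.5 Mb, had relative ratios of 0.616, 0.50 and 0.374. Before the stretch, the nearest measured gene, March7 at 60.05 Mb, had 0.688 FPKM in APL#2 against 1.34 in APL#1, a relative ratio of 0.614, which is inside the range of the members. Baz2b at 59.7 Mb had 0.931. The last members, Cenpb at 131.0 Mb, Rassf2 at 131.8 Mb and 1110034G24Rik at 132.5 Mb, had 0.391, 0.392 and 0.621. Past the end, Tmx4 at 134.4 Mb had 1.28, Snrpb2 at 142.9 Mb 0.857 and Dstn at 143.7 Mb 1.12.

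Outside the stretch, chromosome 2 had ratios near those of all genes. The 101 measured genes before the stretch had a median relative ratio of 1.00, with 50 below the all-gene median, and the 102 after it had 0.986, with 53 below. On the log2 scale the interquartile range of the members was 0.43 wide, against 0.55 for the genes before and 0.51 for those after the stretch. It was 0.54 for 3457 genes on chromosomes other than 2, 6 and 19. Chromosomes 6 and 19 were left out of that background with earlier results known. The 134 measured genes of chromosome 19 had a median relative ratio of 1.95. The width depended on level: it was 0.72 for the 31 members with a mean under 2 FPKM, against 0.53 for 2006 measured genes of that level. For the 16 higher members it was 0.25, against 0.69 for 2094 measured genes. The other sets also keep the gene families set aside from the members, so the widths are not like for like. The 25 measured genes of the stretch that the rule sets aside, among them Sfpi1 (5.74 FPKM in APL#2 against 8.55 in APL#1) and B2m (28.8 FPKM in APL#2 against 91.8 in APL#1), were all below the all-gene median, with a median relative ratio of 0.454. The relative ratio of Sfpi1, 0.805, was the highest of the 25. On the log2(FPKM + 1) scale a difference of -1 or less was met by 10 of these 25, against 4 of the 47 members (background 2.44%). A relative ratio at least 2-fold under the median was seen in 16 of the 25 and 16 of the 47 (background 3.41%). Levels differ too: 16 of the 25 and 16 of the 47 had a mean of at least 2 FPKM, and the pseudocount of 1 understates the change of low genes. The names set aside were chosen with results of these libraries known, so the sets were not compared further.

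**Figure D4:**
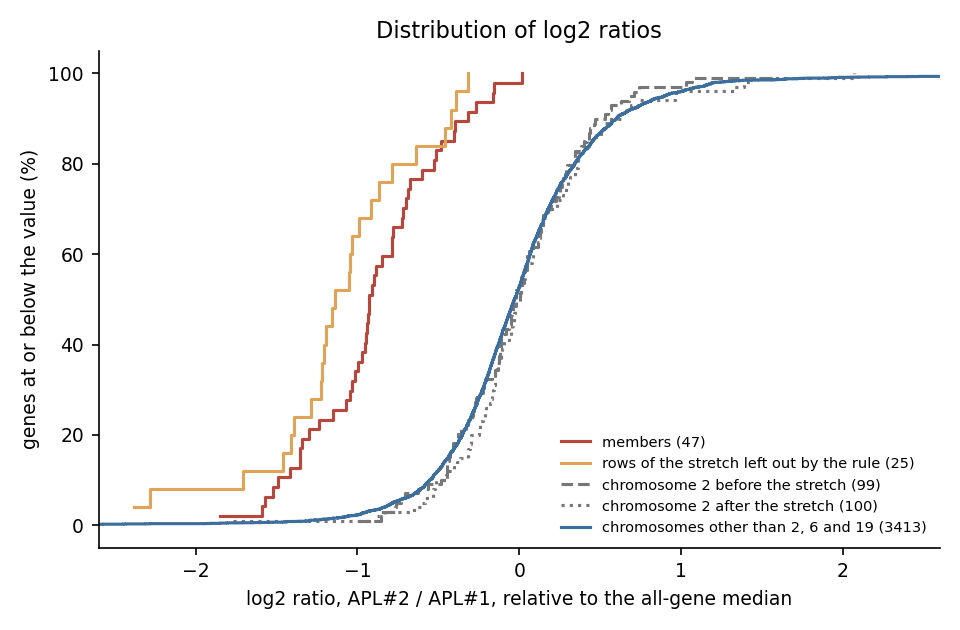
Cumulative share of genes against the log2 ratio of APL#2 to APL#1 relative to the all-gene median, with the number of genes above 0 in both libraries in brackets. The curve of the members is shifted left as a whole, with 46 of 47 below 0, and the curves of chromosome 2 on both sides of the stretch run along that of the other chromosomes.

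Position and depth are given here for the members with the highest levels and with the lowest and highest relative ratios, in mm9 coordinates. The error is the standard error of the log2 ratio implied by the authors' deposited table, and fragments are estimates from FPKM and transcript length. Among the most abundant, Gm14005 (chr2:128124399-128255087) had about 371.9 fragments in APL#2 against 459.9 in APL#1 (error 0.96). Atp8b4 (chr2:126146709-126317289) had the smallest error of any member, 0.52. Dgkz (chr2:91772979-91803720) had about 706 fragments in APL#2 against 1456 in APL#1 (error 0.69). 2310003F16Rik (chr2:121282824-121284176) had 397.8 in APL#2 and 755 in APL#1 (error 1.09), and Ddrgk1 (chr2:130479819-130490381) had 129.4 in APL#2 and 246.9 in APL#1 (error 0.95). The transcript length used for 2310003F16Rik, 2565.5 bases, is longer than its locus, so its fragments are overestimated. No fragments were estimated for Gm6793 (chr2:75497316-75507464), whose error was 0.87.

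The 6 members with the lowest relative ratios had 80.8 to 289.7 estimated fragments in APL#2, on both sides of the members' median of 110.5. Itpa (chr2:130493577-130507350) had 83.8 in APL#2 and 333.8 in APL#1, with an error of 1.04. Arfgap2 (chr2:91105272-91117528) had 80.8 in APL#2 and 269.1 in APL#1 (error 1.13), and Ckap2l (chr2:129093946-129122948) had 91.4 in APL#2 and 301.2 in APL#1 (error 0.99). Slc20a1 and Ckap2l are consecutive members. 2900064A13Rik (chr2:112295182-112307593) had 289.7 in APL#2 and 923.6 in APL#1 (error 1.10), Slc20a1 (chr2:129024509-129037348) had 112.5 in APL#2 and 350.6 in APL#1 (error 1.25), and Gorasp2 (chr2:70499566-70529782) had 95.6 in APL#2 and 283.4 in APL#1 (error 1.02). Of the members with the highest relative ratios, Slc35c1 (chr2:92292922-92300675) had 228.3 in APL#2 and 283.1 in APL#1 (error 1.15), and Sirpa (chr2:129418575-129457964) had 229.0 in APL#2 and 316.2 in APL#1 (error 1.16). Gatm (chr2:122420209-122437013) had 135.7 in APL#2 and 180.7 in APL#1 (error 1.00), and Lpcat4 (chr2:112079998-112087268) had 108.5 in APL#2 and 157.9 in APL#1 (error 1.07). Trim44 (chr2:102140276-102241057) had an error of 0.80.

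The precision of a single member was limited. Estimated fragments ran from 26.4 to 1170 in APL#2 and from 38.6 to 1969 in APL#1 over the 46 members with a transcript length, with medians of 110.5 and 283.3, and the counting error of the log2 ratio was 0.05 to 0.34. The relative log2 ratio was more than 2 such errors from 0 in 40 of the 46, against 48.9% of 4008 measured genes in either direction, and nothing is read from this count since the same contrast chose the members. The standard error implied by the authors' deposited table was wider, 0.52 to 2.55 with a median of 1.04. No member's relative log2 ratio was more than 2 of these from 0. These errors come from the ratio before division by the all-gene median, on which Itpa had a test score of 2.03. In the authors' deposited table none of the 47 members had q at or below 0.05, against 0.22% of measured genes, and 1 of them, Itpa, had an unadjusted p under 0.05, against 1.56%. The loci of 10 members overlap another listed gene: Ssb, Sp3, Gm6793, Alkbh3, Tmem85, BC052040, Haus2, Serf2, Vps16 and Ptpra. Reads shared with those genes cannot be told apart here, and without the 10 members the median relative ratio was 0.537.

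Members next to the level limit looked like the rest. Just inside a mean of 1 FPKM were 1500011K16Rik, BC052040 and Sqrdl, with means of 1.03, 1.052 and 1.06 FPKM and relative ratios of 0.755, 0.407 and 0.519. Just outside were Snrnp200, Ola1 and Arhgap11a, with means of 0.997, 0.985 and 0.980 FPKM and relative ratios of 0.505, 0.606 and 0.493. The 31 members with a mean under 2 FPKM had a median relative ratio of 0.525, and the 16 with a higher mean had 0.540.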

How the data were processed

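RNA sequencing of CD45.2+ spleen cells was deposited as 1 gene table with 1 library per leukaemia. Per the submitters' processing notes, TopHat2 2.0.10, Cufflinks, Cuffdiff and build mm9 were used. Strand, annotation and normalization: not given in the sources used here. Value columns deposited by the authors were read as FPKM from the table's layout, since its header names no unit. The table deposited by the authors also holds a test score, a p-value and a q-value per gene; the log2 fold column deposited by the authors was not used.

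Ratios were computed as FPKM in APL#2 over FPKM in APL#1 with no pseudocount, divided by the median ratio of all genes with a mean of at least 1 FPKM. Counts of 2-fold genes were made on this ratio and, where said, on log2(FPKM + 1) or with another pseudocount, without division by that median. Depth was estimated from 305 genes with a mean under 0.2 FPKM whose ratio matched the commonest one within 0.1%, and from 19 single-transcript genes among them; fragments per member used the median GENCODE M21 transcript length and are approximate. For 2310003F16Rik and Cenpb that length exceeds the locus, so their fragments are overestimated and their counting errors too small. The implied standard error divides the log2 ratio, not centred on the all-gene median, by the authors' test score. Intervals of this kind cover counting error or the authors' model only. Promoters were matched to RefSeq by symbol or older symbol; 9 members carry older symbols. Every member is named, with both values; some genes that are not members are not reported here. Members and role lists were chosen with earlier results of these data known. No test was run, because each leukaemia has 1 library. Python 3.11.15, numpy 2.4.6 and pandas 2.3.3 were used, and the ratio summary was tested on simulated data.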

Additional observations from a re-analysis of the deposited data

How the results depend on the processing

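No paired analysis was possible because each leukaemia has 1 library, and for the same reason no library could be left out. Over 12 alternatives, 2 of them chosen after seeing the data (without Gm6793, and without members that overlap another gene), the members' median kept its direction and stayed between -1.20 and -0.71 (log2; -0.93 as reported). The medians of roles, windows and genes set aside, recomputed under the 8 settings of pseudocount, level and scaling only, kept their direction too. With a pseudocount of 0.1, 30 members were at least 2-fold lower without centring (background 6.15%). The log2 median of transcription and chromatin genes was -0.98 and that of window 2 -1.0. With 0.5, these values were 16 (background 3.85%), -0.88 and -0.87, the members stood at -0.71, window 8 at -0.67 and the genes set aside at -0.85. With a mean of at least 0.5 FPKM, 128 of 132 genes lay below the all-gene median, transcription and chromatin genes stood at -0.76 and window 5 at -0.90. With a mean of at least 2, which leaves no member in window 8 or in membrane traffic and cytoskeleton, 16 of 16 lay below it, Itpa alone in its group stood at -1.86 and Caprin1 alone in window 5 at -0.90. With no filter, 271 of 313 lay below it, transcription and chromatin genes stood at -0.69, window 2 at -0.95 and window 5 at -0.92. Scaling to equal totals without centring gave -1.20 for the members, -1.85 for cell division genes, -1.33 for window 2, -0.96 for window 4 and -1.41 for the genes set aside. Window 2 stood at -1.10 with upper quartiles set equal and at -1.02 when centred on genes outside chromosomes 2, 6 and 19. With the genes dropped by name kept, 10 of 63 were at least 2-fold lower on log2(FPKM + 1), with a background of 2.44%. Depth limits single members more than the group: those with few estimated fragments, such as Trim44, could lie well to either side of their value. For Trim44 the estimate rests on a transcript of 516 bases. Its error implied by the authors' deposited table, 0.80, was under the members' median of 1.04.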

Other observations

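Genes of the stretch too low to be members had a like difference. Of 173 with a mean of 0.2 to 1 FPKM and a value above 0 in both libraries, 164 lay below the median of the 5008 genes of that level in the whole table, with a median relative ratio of 0.537. These come from the same libraries as the choice of the stretch and are no separate evidence.

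The 9 exceptions were named after their values were seen, and 1 of them stood far apart. Thbs1, which encodes the secreted matrix protein thrombospondin-1 of platelets and macrophages, had 1.62 FPKM in APL#2 against 0.147 in APL#1, an 11.1-fold difference toward APL#2. It starts at 117.9 Mb, between members that were lower in APL#2. In the authors' deposited table its q was 0.238. Among platelet markers the sum was nearly all Itga2b (3.95 FPKM in APL#2 against 2.34 in APL#1), while Gp1bb was lower in APL#2 and Pf4, Ppbp and Gp9 were at 0. Of the measured macrophage and dendritic cell markers, Vcam1 had 7.47 FPKM in APL#2 against 3.94 in APL#1 and Cd68 had 1.01 FPKM in APL#2 against 1.54 in APL#1. Among those under 1 FPKM, Emr1 had 0.537 FPKM in APL#2 against 0.0230 in APL#1, while C1qa and C1qb were lower in APL#2. The part of these cells in the level of Thbs1 was not tested. The other exceptions were Gca, 1700011J10Rik, Timm10, Shf, Slc28a2, Bambi-ps1, Gm14085 and the row that joins Eif3j and Gm9781. Of these, Shf, Slc28a2, Bambi-ps1 and Gm14085 start within 122.2 to 122.3 Mb, next to one another. Slc28a2, a nucleoside carrier, had 0.596 FPKM in APL#2 against 0.595 in APL#1.

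Low genes also bear on where the stretch begins and ends. Before its start, Rbms1 at 60.6 Mb had a log2 ratio of -1.02 relative to the all-gene median and Tank at 61.4 Mb had -0.21. Just inside, Psmd14 at 61.5 Mb, a measured gene that the rule sets aside by its prefix, had -1.16, Gca at 62.5 Mb 0.06, Grb14 at 64.8 Mb -0.16 and Galnt3 at 65.9 Mb -0.98. Lower and unshifted genes are thus mixed over the first part of the stretch, where no member lies. These values are imprecise: Gca, Grb14 and Galnt3 had means under 1 FPKM, and the implied error of Gca was 1.00 on the log2 scale. Past the end, Trmt6 at 132.6 Mb had -0.31, Crls1 at 132.7 Mb -1.28, Tmx4 at 134.4 Mb 0.36, Plcb4 at 135.6 Mb -1.37 and 2210009G21Rik at 136.7 Mb -0.74. Mkks, at the same start, had -0.18 and Jag1 at 136.9 Mb had -0.21.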
